A study of Mus musculus with 12 samples.

Results

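The ephrins, Eph receptors, semaphorins, plexins and neuropilins of mouse skin were measured by RNA sequencing in 3 compartments of the epidermis and hair follicle, with and without deletion of the gene of the epidermal growth factor receptor, Egfr. The members were chosen by gene symbol alone, as every deposited row named Epha or Ephb with a number, Efna or Efnb with a number, Sema3 to Sema7 with a letter, Plxna to Plxnd with a number, Nrp1 or Nrp2. This gave 53 of the 25965 genes listed: 8 ephrins, 14 Eph receptors, 20 semaphorins, 9 plexins and 2 neuropilins. In 47 of them at least 1 read was found, and 6 (Epha3, Epha5, Epha6, Epha8, Sema5b and Sema7a) were at 0 in all 12 libraries.

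Each compartment had 2 knockout and 2 control libraries, and the series concerns Egfr in hair shaft differentiation. Hair follicle stem cells (HFSC) came from the genotype EGFR_delta_LGR5 (libraries L95 and L97) and from the control EGFR_fl_fl (L136 and L94). Outer root sheath (ORS) cells came from EGFR_delta_ep (E358 and E359) and EGFR_fl_fl (E341 and E344). IFE cells came from EGFR_delta_ep (E358 and E359) and EGFR_fl_fl (E341 and E360). The labels write IFE beside the words inner root sheath, although the letters are in common use for interfollicular epidermis. All control groups carry the floxed Egfr allele without deletion. The epidermal deletion was read from the letters ep and the Lgr5-linked one from LGR5, and neither the Cre driver nor the age is stated. Whether the libraries of a group came from separate animals is not stated, so the p-values reflect only how these samples scatter, and that scatter may be technical.

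Ephrins are membrane-bound ligands, the A class held by a lipid anchor and the B class by a transmembrane segment, and they bind Eph receptor tyrosine kinases on touching cells, with signals running into both cells. Semaphorins are secreted (class 3) or membrane-bound ligands of plexins, and most class 3 members need a neuropilin as co-receptor. Both systems were first described as repellents of growing axons and also act on adhesion, migration and cell sorting in epithelia, the epidermis and hair follicle included.

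HFSC libraries held 11.5 to 16.8 M reads in genes, ORS libraries 24.7 to 27.7 M and IFE libraries 11.4 to 13.2 M. Levels are given as CPM, the reads of a gene per 1000000 gene reads after TMM scaling. Egfr was at 334 and 330.2 CPM in the HFSC libraries labelled knockout, against 389.9 and 429 CPM in HFSC controls, so that its level was mostly kept there. It was at 3.70 and 55.0 CPM in ORS knockout libraries, against 275 and 247 CPM in ORS controls. In IFE it was at 0 and 0.321 CPM in knockout libraries, against 117 and 155 CPM in controls. Suprabasal markers summed to 6032 to 8269 CPM in IFE and at most 693 CPM elsewhere, and bulge stem cell markers to 26019 to 43002 CPM in HFSC and at most 9973 CPM elsewhere. The 7 inner root sheath markers listed in the files summed to 436 to 608 CPM in HFSC, 301 to 382 CPM in ORS and 883 to 1054 CPM in IFE, highest in IFE. Most of that was Gata3, a transcription factor that is also made in the epidermis, at 401 to 529.8 CPM in HFSC, 282 to 354 CPM in ORS and 864 to 1015 CPM in IFE. The other 6, which are 5 keratins and trichohyalin, summed to 29.7 to 108 CPM in HFSC, 7.34 to 28.9 CPM in ORS and 12.1 to 39.3 CPM in IFE, with Krt25 and Krt28 at 0 in every IFE library. By Xist and Y-linked reads, both IFE controls and both HFSC libraries labelled knockout were male, both IFE knockout libraries and both HFSC controls were female, and the ORS libraries were female except control E341. Sex and genotype therefore cannot be told apart in HFSC or IFE. ORS libraries also held 50.6% to 54.6% of their total reads in genes, against 26.9% to 29.6% in HFSC and IFE libraries, and this difference cannot be told apart from the compartment.

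Markers of other cell types that use guidance genes were scarce or uneven. The 8 endothelial markers summed to at most 17.9 CPM in any library, with Kdr and Emcn at 0 throughout. The 10 fibroblast and dermal papilla markers summed to at most 83.0 CPM in HFSC, 122 CPM in ORS and 301 CPM in IFE, the 6 melanocyte markers to 201 to 306 CPM in HFSC and at most 76.0 CPM elsewhere, and the 7 Schwann cell and neuron markers to at most 41.8 CPM anywhere. The 8 leukocyte markers summed to 37.0 to 62.7 CPM in HFSC, 13.6 to 19.4 CPM in ORS and 16.6 to 41.9 CPM in IFE, with Ptprc and Cd207 at 0 in all libraries. The part of these cells in the results was not tested. In bulk samples such as these, fewer cells of a type and less RNA per cell cannot be told apart.

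The guidance genes differed between the compartments. Of the 53 members, 42 passed the filter on low counts over all 12 libraries, while Epha10, Plxnb3, Sema3g, Sema4f, Sema6b and the 6 members without a read did not. Members were called with limma at a Benjamini-Hochberg adjusted p under 0.05 over all 15251 genes tested, averaging the knockout and control groups of a compartment. The knockout genotype of HFSC was not that of ORS and IFE, and Egfr was mostly kept in HFSC. In the averaged HFSC contrasts, compartment therefore cannot be told apart from knockout genotype, Egfr loss or series of library names (L against E). Between HFSC and ORS, 20 of 42 were called, 8 higher and 12 lower in HFSC, where 28.6% of all genes tested were called (14.4% higher and 14.2% lower). Between HFSC and IFE, 25 of 42 were called, 17 higher and 8 lower in HFSC, where 36.0% of all genes tested were called (19.7% higher and 16.3% lower). Between ORS and IFE, 22 of 42 were called, 14 higher and 8 lower in ORS, where 19.4% of all genes tested were called (10.4% higher and 9.00% lower). Members that reached the filter through 1 compartment alone had to differ, so these counts are a description. The median log2 fold change of the members was -0.03 for HFSC against ORS, 0.05 for HFSC against IFE and 0.56 for ORS against IFE, and the medians of all genes tested were 0.03, 0.18 and 0.11. In all, 33 members were called in at least 1 comparison and 8 in every one (Epha1, Ephb1, Plxna2, Sema3a, Sema3d, Sema3f, Sema4b and Sema5a).

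**Figure D1:**
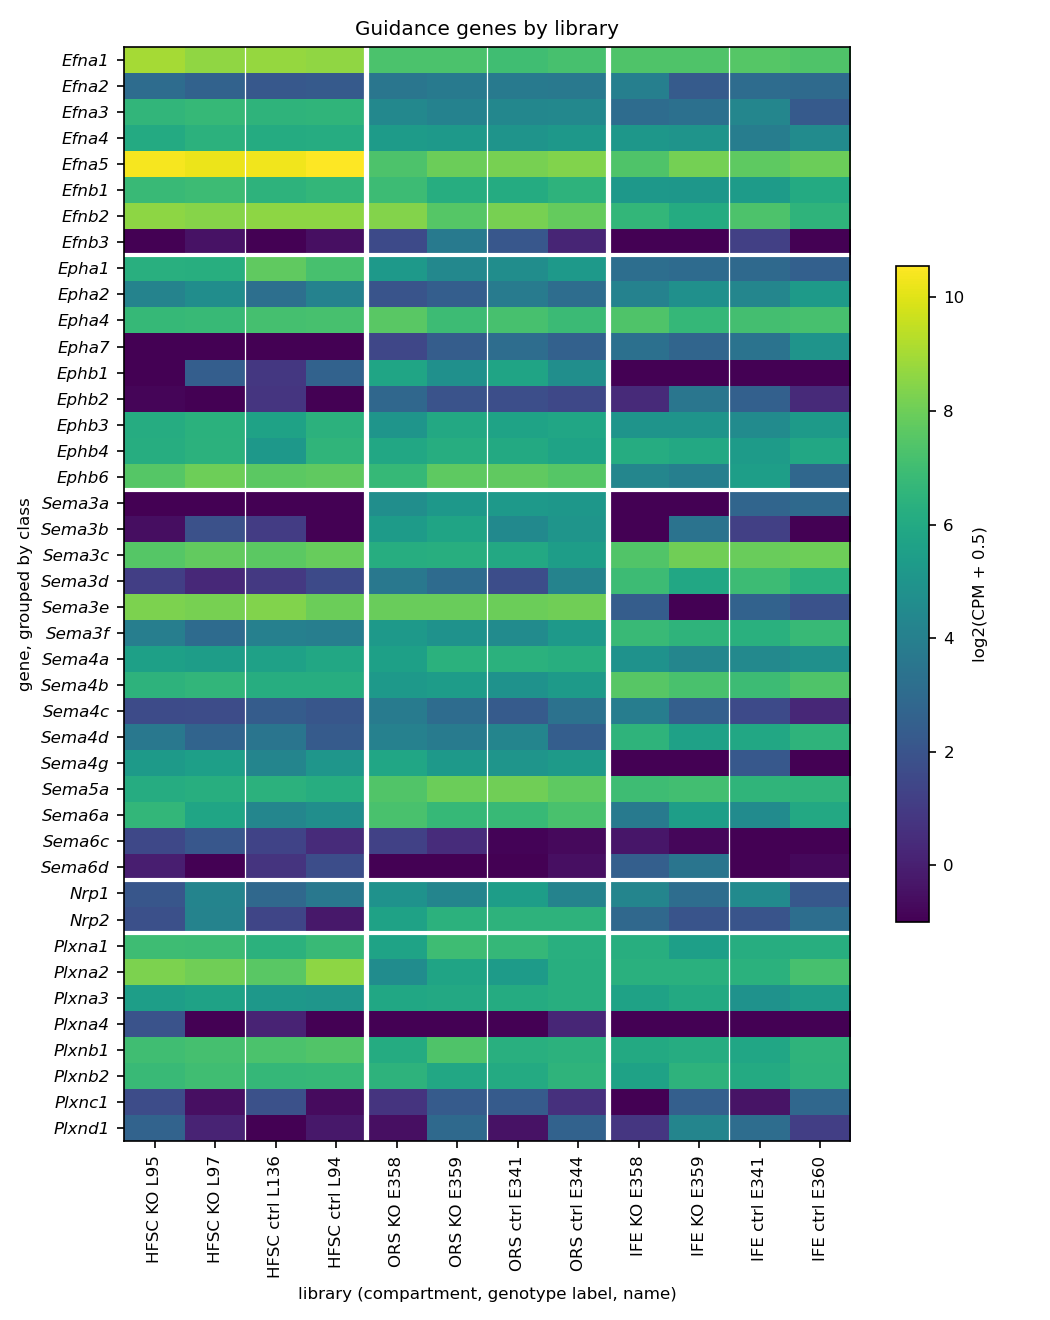
Level of the 42 guidance genes that passed the filter in each of the 12 libraries, as colour on the scale log2(CPM + 0.5), with genes grouped by class and libraries by compartment and genotype. Efna5 stood highest in the 4 HFSC libraries (1185 to 1508 CPM), and Sema3e was high in HFSC and ORS and at most 5.68 CPM in IFE.

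Summed per length of exon, the classes had different distributions, here in CPM per kb. The ephrins summed to 699 to 791 in HFSC, 234 to 257 in ORS and 187 to 207 in IFE. The Eph receptors summed to 112 to 149 in HFSC, 89.2 to 113 in ORS and 44.5 to 52.2 in IFE. For both classes every HFSC library stood above every IFE library, and for ephrins above every ORS library. The semaphorins summed to 99.3 to 109 in HFSC, 102 to 113 in ORS and 107 to 126 in IFE, with overlap between all compartments. The plexins summed to 55.1 to 71.6 in HFSC, 33.1 to 51.4 in ORS and 32.6 to 43.7 in IFE, with every HFSC library above every other library. The neuropilins summed to 0.645 to 3.27 in HFSC, 7.13 to 11.8 in ORS and 1.13 to 2.61 in IFE, with all 4 ORS libraries on top.

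**Figure D2:**
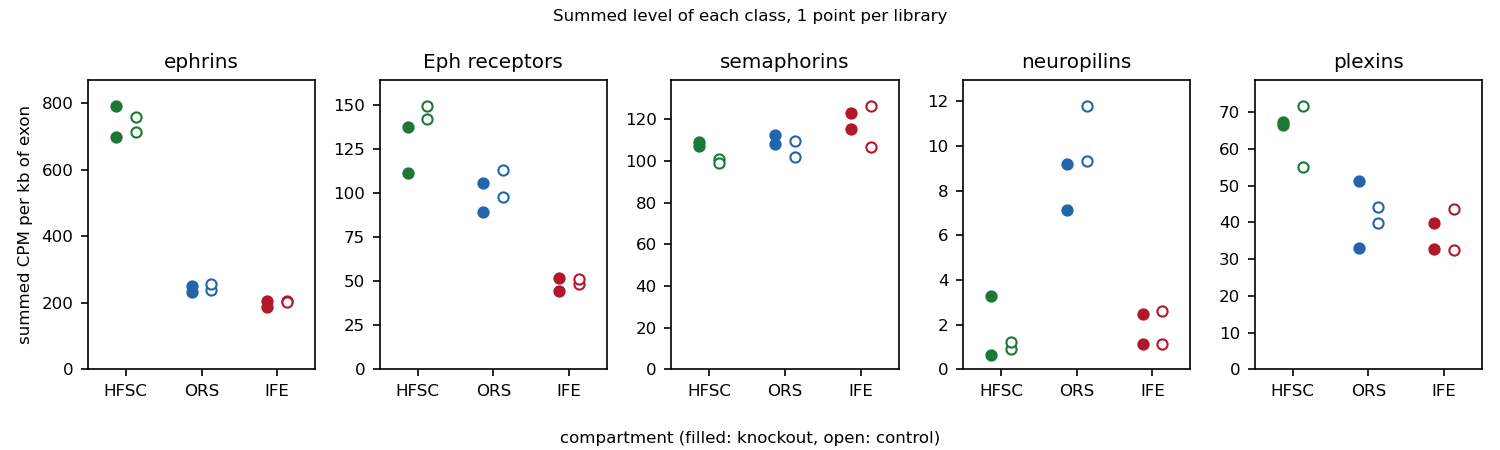
Summed level of each class in CPM per kb of exon, 1 point per library, with knockout libraries filled and control libraries open. Ephrins reached 699 to 791 in HFSC and at most 257 elsewhere, while semaphorins stayed between 99.3 and 126 in all 12 libraries.

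Of the 5 A-class ephrins, 4 were called above both other compartments in HFSC (Efna1, Efna3, Efna4 and Efna5). In the sentences that follow, the 4 values of a compartment are CPM of the 2 knockout and then the 2 control libraries, in the order L95, L97, L136 and L94 for HFSC, E358, E359, E341 and E344 for ORS, and E358, E359, E341 and E360 for IFE. Efna5, a ligand of EphA receptors and the ephrin with the highest level per length (149.6 CPM per kb averaged over the compartments), was at 1345, 1185, 1276 and 1508 in HFSC, 163, 248, 289 and 332 in ORS, and 164, 278, 203 and 247 in IFE. Its 4 HFSC libraries lay above all others, and ORS and IFE overlapped. The log2 fold change was 2.40 ± 0.184 (SE, limma adjusted p = 3.56e-06) for HFSC against ORS and 2.59 ± 0.184 (SE, limma adjusted p = 1.31e-06) for HFSC against IFE.

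Efna1, the best known ligand of Epha2 and the second ephrin by level per length (137 CPM per kb), was at 517, 402, 427 and 392 in HFSC, 155, 155, 129 and 146 in ORS, and 165, 168, 183 and 165 in IFE. HFSC libraries again stood above all others, at a log2 fold change of 1.56 ± 0.132 (SE, limma adjusted p = 6.84e-06) against ORS and 1.34 ± 0.132 (SE, limma adjusted p = 1.17e-05) against IFE. Efna3, a further EphA ligand, was at 96.5, 107, 90.3 and 95.3 in HFSC, 20.4, 16.9, 19.7 and 20.7 in ORS, and 8.06, 9.23, 19.4 and 4.28 in IFE. No HFSC library of Efna3 came near the others, and the log2 fold change was 2.30 ± 0.396 (SE, limma adjusted p = 0.00102) against ORS and 3.37 ± 0.396 (SE, limma adjusted p = 4.38e-05) against IFE. Efna4 followed at 1.02 ± 0.242 against ORS and 1.56 ± 0.242 against IFE (log2 fold change ± SE), with 67.2 to 84.9 CPM in HFSC, 31.0 to 40.1 CPM in ORS and 14.4 to 33.8 CPM in IFE. Efna1, Efna3 and Efna4 are neighbours on chromosome 3 (chr3:89271733-89281142, chr3:89313899-89322965 and chr3:89333390-89338028 in mm10, all on the minus strand). Efna3 and Efna4 share exon bases with other annotated genes (Gm15998 and 4731419I09Rik), as do Ephb1, Ephb4, Nrp1, Plxna1, Plxna4, Plxnb1, Plxnc1, Sema4a and Sema4c with theirs, so reads could be split there. Efna2, the remaining A-class member measured, was called in no comparison, at 3.99 to 7.89 CPM in HFSC, 11.1 to 13.1 CPM in ORS and 4.42 to 15.2 CPM in IFE.

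Of the B class, Efnb1 and Efnb2 were lowest in IFE instead. Efnb2, a transmembrane ligand that also signals into the cell that carries it, was at 388, 347, 385 and 388 in HFSC, 345, 184, 295 and 227 in ORS, and 99.2, 69.04, 162 and 91.8 in IFE. All HFSC and ORS libraries stood above all IFE libraries, with a log2 fold change of 1.90 ± 0.232 (SE, limma adjusted p = 5.71e-05) for HFSC and 1.34 ± 0.232 (SE, limma adjusted p = 0.00171) for ORS against IFE. Efnb1, on the X chromosome, was likewise higher in HFSC (1.29 ± 0.230) and ORS (0.99 ± 0.230) than in IFE (log2 fold change ± SE), the second of these not called without ORS control E344 (adjusted p = 0.0514, log2 fold change 0.91). Efnb3 was low, at 0, 0.250, 0 and 0.197 in HFSC, 2.48, 12.7, 3.88 and 0.653 in ORS, and 0, 0, 1.78 and 0 in IFE. The ORS level of Efnb3 came mostly from knockout library E359, and ORS control E344 overlapped the IFE range. Its call for HFSC against ORS, -2.64 ± 0.691 (SE, limma adjusted p = 0.0132), was lost when HFSC L136 or L95 or ORS E341 or E359 was left out (adjusted p of 0.0508 to 0.0607, log2 fold change -2.52 to -2.11), and that for ORS against IFE, 2.36 ± 0.691, when HFSC L136 or L94, ORS E341 or E359 or IFE E358, E359 or E360 was left out (adjusted p of 0.0513 to 0.125, log2 fold change 1.81 to 2.36).

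The start of Efna5 is shown because it had the highest level per length of any member. The bases from 250 before to 50 after the annotated start of Efna5 are given from RefSeq (GRCm38.p6, chr17:62881268-62881567, minus strand, written 5′ to 3′), with GC boxes, the letters GGGCGG on either strand, in capitals. This window holds 4 GC boxes and 73.3% G and C, and neither TATAAA nor the AP-1 letters TGANTCA.
Efna5: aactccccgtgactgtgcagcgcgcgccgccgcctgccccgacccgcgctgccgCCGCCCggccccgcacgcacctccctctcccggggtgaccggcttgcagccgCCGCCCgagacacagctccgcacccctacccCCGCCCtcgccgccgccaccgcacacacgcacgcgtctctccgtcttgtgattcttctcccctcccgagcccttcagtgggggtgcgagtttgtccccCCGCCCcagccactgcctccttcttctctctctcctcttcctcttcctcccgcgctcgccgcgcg
Of 32851 promoter windows of this length, 35.7% held a GC box, 7.8% TGANTCA and 13.6% TATAAA on either strand. Of the 61 windows of the 47 members matched by symbol, 46 (75.4%) held a GC box, 3 TGANTCA and 1 TATAAA, and their median G and C content was 64.0%, against 52.7% over all windows. These matches describe letters only.

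Among the Eph receptors, 4 were called higher in HFSC than in IFE (Epha1, Ephb1, Ephb3 and Ephb6), and 3 were called lower in HFSC than in ORS (Epha7, Ephb1 and Ephb2). Ephb6, a receptor whose kinase domain is inactive, had the highest level per length of its class (36.4 CPM per kb) and was at 182, 257, 200.2 and 215 in HFSC, 107, 208, 211 and 184 in ORS, and 19.6, 15.5, 43.7 and 6.87 in IFE. All IFE libraries lay below the rest, at a log2 fold change of 3.56 ± 0.439 (SE, limma adjusted p = 6.18e-05) for HFSC and 3.26 ± 0.439 (SE, limma adjusted p = 2.91e-04) for ORS against IFE. Epha1, a receptor of A-class ephrins, was at 78.5, 75.7, 214 and 146 in HFSC, 38.2, 20.4, 24.7 and 36.2 in ORS, and 8.62, 7.79, 7.12 and 5.26 in IFE. The compartments did not overlap, with HFSC over ORS at 1.995 ± 0.303 (SE, limma adjusted p = 4.15e-04), HFSC over IFE at 3.95 ± 0.303 (SE, limma adjusted p = 2.20e-06) and ORS over IFE at 1.95 ± 0.303 on the log2 scale. Epha1 shares 236 of its 3928 exon bases with Zyx, which was at 155 to 214 CPM in HFSC, 24.8 to 33.4 CPM in ORS and 28.7 to 45.5 CPM in IFE. Whether the counting used strand is not given in the sources used here, and the part of Zyx reads in the Epha1 values was not tested.

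Ephb1, a receptor of B-class ephrins, was highest in ORS. It was at 0, 5.06, 1.33 and 5.71 in HFSC, 55.9, 27.2, 52.96 and 25.7 in ORS, and 0 in all 4 IFE libraries. Every ORS library stood above every HFSC library, and Ephb1 was at least 161-fold higher in ORS than in IFE, where 3 reads in each library were taken as the floor. HFSC fell below ORS by 4.02 on the log2 scale (SE 0.765, limma adjusted p = 0.00197). Against IFE the HFSC level was at least 12.1-fold higher, but library L95 had no read, and the call was lost when HFSC L94 or L97, ORS E341, E344 or E358 or IFE E341, E358, E359 or E360 was left out (adjusted p of 0.0504 to 0.163, log2 fold change 1.38 to 2.24).

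Epha7, an A-class receptor, was at 0 in all 4 HFSC libraries, 2.29, 4.78, 8.30 and 5.61 in ORS, and 9.10, 6.34, 10.2 and 30.8 in IFE. It had no read in any HFSC library, a level at least 25.2-fold lower than in ORS and at least 67.6-fold lower than in IFE, and was called in both comparisons (limma adjusted p = 6.50e-04 and 5.10e-05). Ephb2, a B-class receptor, was at 0.0611, 0, 1.24 and 0 in HFSC, 6.69, 3.42, 2.93 and 2.31 in ORS, and 0.798, 11.2, 5.34 and 0.803 in IFE. These levels were low and the HFSC and IFE ranges overlapped. The Ephb2 log2 fold change was -2.53 ± 0.785 (SE, limma adjusted p = 0.0307) for HFSC against ORS, a call lost when HFSC L94, L95 or L97 or ORS E341, E344 or E358 was left out (adjusted p of 0.0726 to 0.129, log2 fold change -2.60 to -2.08). For HFSC against IFE it was -2.22 ± 0.785, a call lost without HFSC L94, L95 or L97, ORS E341, E344, E358 or E359 or IFE E341 or E359 (adjusted p of 0.0579 to 0.168, log2 fold change -2.26 to -1.43).

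Of the other receptors, Epha4 and Ephb4 were called in no comparison. Epha4, which binds ephrins of both classes and had the second highest receptor level per length (16.8 CPM per kb), was at 105, 109, 140.2 and 147 in HFSC, 192, 121, 145 and 116 in ORS, and 164, 104, 137 and 145 in IFE. Its ranges overlapped in all 3 compartments. Ephb4, a receptor of Efnb2, was at 34.8 to 93.0 CPM in HFSC, 51.3 to 72.9 CPM in ORS and 40.2 to 70.4 CPM in IFE. Ephb3, a further receptor of B-class ephrins, was higher in HFSC than in IFE, with a log2 fold change of 1.18 ± 0.285 (SE, limma adjusted p = 0.00661). Epha2, a receptor found in many epithelia, was lower in ORS than in IFE by 1.77 on the log2 scale (SE 0.423, limma adjusted p = 0.0124), a call lost without ORS control E344 (adjusted p = 0.0560, log2 fold change -1.60).

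The secreted class 3 semaphorins differed between compartments in opposite directions. Sema3e, which can bind Plxnd1 without a neuropilin, was at 313, 294, 335 and 250.4 in HFSC, 239.5, 238, 251 and 267 in ORS, and 4.87, 0, 5.68 and 3.30 in IFE. HFSC and ORS libraries overlapped, and IFE libraries lay far below, at a log2 fold change of 6.72 ± 0.542 (SE, limma adjusted p = 3.03e-06) for HFSC and 6.47 ± 0.542 (SE, limma adjusted p = 7.82e-06) for ORS against IFE. Sema3a, a ligand of Nrp1 complexes, was at 0 in all 4 HFSC libraries, 25.5, 35.9, 36.9 and 33.9 in ORS, and 0, 0, 6.27 and 7.31 in IFE. It was found in every ORS library, in no HFSC library and only in the controls of IFE. Sema3a was at least 159-fold lower in HFSC than in ORS (limma adjusted p = 4.59e-06), at least 16.3-fold lower in HFSC than in IFE (adjusted p = 0.00813), and higher in ORS than in IFE at 4.12 ± 0.482 (SE, limma adjusted p = 1.01e-04) on the log2 scale. The contrast of the knockout libraries alone did not call Sema3a for HFSC against IFE. That of the control libraries alone did not call it for ORS against IFE.

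Sema3b, another secreted ligand of neuropilin complexes, was at 0.183, 3.18, 1.60 and 0 in HFSC, 39.7, 52.7, 21.7 and 32.6 in ORS, and 0, 10.1, 1.78 and 0 in IFE. All ORS libraries stood above the rest, with a log2 fold change of -4.80 ± 0.974 (SE, limma adjusted p = 0.00298) for HFSC against ORS and 4.50 ± 0.974 (SE, limma adjusted p = 0.00701) for ORS against IFE. Sema3d, also secreted, was highest in IFE, at 1.71, 0.749, 1.42 and 2.56 in HFSC, 11.8, 7.64, 2.79 and 17.7 in ORS, and 123, 59.9, 119 and 79.7 in IFE. Its 4 IFE libraries stood above all others, with a log2 fold change of -5.52 ± 0.565 (SE, limma adjusted p = 1.64e-05) for HFSC against IFE and -3.39 ± 0.565 (SE, limma adjusted p = 0.00137) for ORS against IFE. HFSC was also below ORS (-2.13 ± 0.565), a call lost without HFSC L136 or L97 or ORS E344 or E358 (adjusted p of 0.0521 to 0.0636, log2 fold change -1.98 to -1.52).

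Sema3f, a ligand that prefers Nrp2, was ordered HFSC below ORS below IFE without overlap, at 7.74 to 16.1 CPM in HFSC, 23.1 to 37.3 CPM in ORS and 80.1 to 112 CPM in IFE. Its log2 fold change was -1.22 ± 0.296 (SE, limma adjusted p = 0.00864) for HFSC against ORS and -1.63 ± 0.296 (SE, limma adjusted p = 0.00239) for ORS against IFE. Sema3c, the semaphorin with the highest level per length (23.6 CPM per kb), was at 181, 218, 197 and 231 in HFSC, 72.2, 76.5, 62.5 and 42.5 in ORS, and 171, 268, 241 and 257 in IFE. ORS libraries lay below all others, and HFSC and IFE overlapped, with a log2 fold change of 1.73 ± 0.188 (SE, limma adjusted p = 3.85e-05) for HFSC against ORS and -1.89 ± 0.188 (SE, limma adjusted p = 2.93e-05) for ORS against IFE.

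Sema3d, Sema3a, Sema3e and Sema3c lie in this order along chromosome 5 (chr5:12383166-12588943, chr5:13396784-13602565, chr5:14025276-14256689 and chr5:17574281-17730268 in mm10, all on the plus strand), and the order of the compartments by mean level differed between all of them. The windows around the starts of the first 3 are printed because these neighbours were high in different compartments, Sema3d in IFE, Sema3a in ORS, and Sema3e in HFSC and ORS. They are from RefSeq (GRCm38.p6, plus strand, 250 bases before to 50 after the start, 5′ to 3′) at chr5:12382916-12383215, chr5:13396534-13396833 and chr5:14025026-14025325, with GC boxes in capitals.
Sema3d: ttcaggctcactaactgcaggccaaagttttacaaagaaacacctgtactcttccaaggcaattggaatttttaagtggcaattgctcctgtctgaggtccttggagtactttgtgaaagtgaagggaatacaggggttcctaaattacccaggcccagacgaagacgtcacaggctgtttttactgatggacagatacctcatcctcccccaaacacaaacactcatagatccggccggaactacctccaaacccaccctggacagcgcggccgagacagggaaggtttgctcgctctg
Sema3a: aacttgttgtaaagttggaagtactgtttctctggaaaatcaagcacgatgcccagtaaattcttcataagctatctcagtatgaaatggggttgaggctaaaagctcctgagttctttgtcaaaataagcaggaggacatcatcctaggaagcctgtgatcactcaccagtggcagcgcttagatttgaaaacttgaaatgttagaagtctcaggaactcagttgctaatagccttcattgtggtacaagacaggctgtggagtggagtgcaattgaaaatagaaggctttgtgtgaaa
Sema3e: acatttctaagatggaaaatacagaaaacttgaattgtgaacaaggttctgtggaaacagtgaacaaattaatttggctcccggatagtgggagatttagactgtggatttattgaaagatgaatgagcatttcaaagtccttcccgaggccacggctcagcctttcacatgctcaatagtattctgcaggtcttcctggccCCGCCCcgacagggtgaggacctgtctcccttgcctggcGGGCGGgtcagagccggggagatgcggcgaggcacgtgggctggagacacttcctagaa
The Sema3e window held 2 GC boxes and those of Sema3d and Sema3a none, the G and C content being 49.7% for Sema3d, 41.3% for Sema3a and 50.7% for Sema3e. None of the 3 held TATAAA or TGANTCA.

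Membrane-bound semaphorins also differed by compartment. Sema4g, one of class 4, was at 38.7, 45.00, 18.8 and 32.7 in HFSC, 57.4, 36.3, 32.6 and 38.95 in ORS, and 0, 0, 4.07 and 0 in IFE. In IFE only control E341 had reads, and the log2 fold change was 5.23 ± 0.616 (SE, limma adjusted p = 4.41e-05) for HFSC and 5.55 ± 0.616 (SE, limma adjusted p = 6.83e-05) for ORS against IFE. Sema4d, the ligand of Plxnb1, was at 11.98, 6.05, 10.8 and 4.53 in HFSC, 16.2, 13.7, 18.96 and 4.96 in ORS, and 91.01, 48.4, 60.5 and 91.4 in IFE. IFE libraries stood above all others, and HFSC and ORS overlapped, with a log2 fold change of -3.10 ± 0.479 (SE, limma adjusted p = 3.38e-04) for HFSC and -2.49 ± 0.479 (SE, limma adjusted p = 0.00341) for ORS against IFE.

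Sema4b, the third semaphorin by level per length (16.3 CPM per kb), was at 89.3, 96.99, 73.4 and 73.8 in HFSC, 35.9, 41.1, 28.8 and 39.3 in ORS, and 189, 152, 120.4 and 168 in IFE. The compartments did not overlap and ran from IFE through HFSC down to ORS, with a log2 fold change of 1.19 ± 0.197 (SE, limma adjusted p = 7.40e-04) for HFSC against ORS and -0.90 ± 0.197 (SE, limma adjusted p = 0.00362) for HFSC against IFE. Sema5a, a semaphorin with thrombospondin repeats, was highest in ORS at 171 to 262 CPM, against 70.1 to 86.4 CPM in HFSC and 90.2 to 132 CPM in IFE. It was lower in HFSC than in ORS, at a log2 fold change of -1.53 ± 0.173 (SE, limma adjusted p = 4.99e-05), and its lower level in HFSC than in IFE (-0.52 ± 0.173) was not called without HFSC L94, L95 or L97 or IFE E341, E358, E359 or E360 (adjusted p of 0.0537 to 0.110, log2 fold change -0.55 to -0.46). Sema6a, a ligand of A-type plexins, was highest in ORS at 106 to 150.2 CPM, against 19.3 to 100.5 CPM in HFSC and 13.2 to 63.4 CPM in IFE. Its log2 fold change was -1.62 ± 0.409 for HFSC against ORS, a call lost without HFSC L97 or ORS E344 or E358 (adjusted p of 0.0508 to 0.0532, log2 fold change -1.51 to -1.41), and 2.04 ± 0.409 for ORS against IFE. Sema4a, also of class 4, was at 43.1 to 60.8 CPM in HFSC, 47.4 to 83.4 CPM in ORS and 19.2 to 29.6 CPM in IFE, with all IFE libraries lowest and a log2 fold change of 1.02 ± 0.263 (SE, limma adjusted p = 0.00963) for HFSC and 1.53 ± 0.263 (SE, limma adjusted p = 0.00170) for ORS against IFE.

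**Figure D3:**
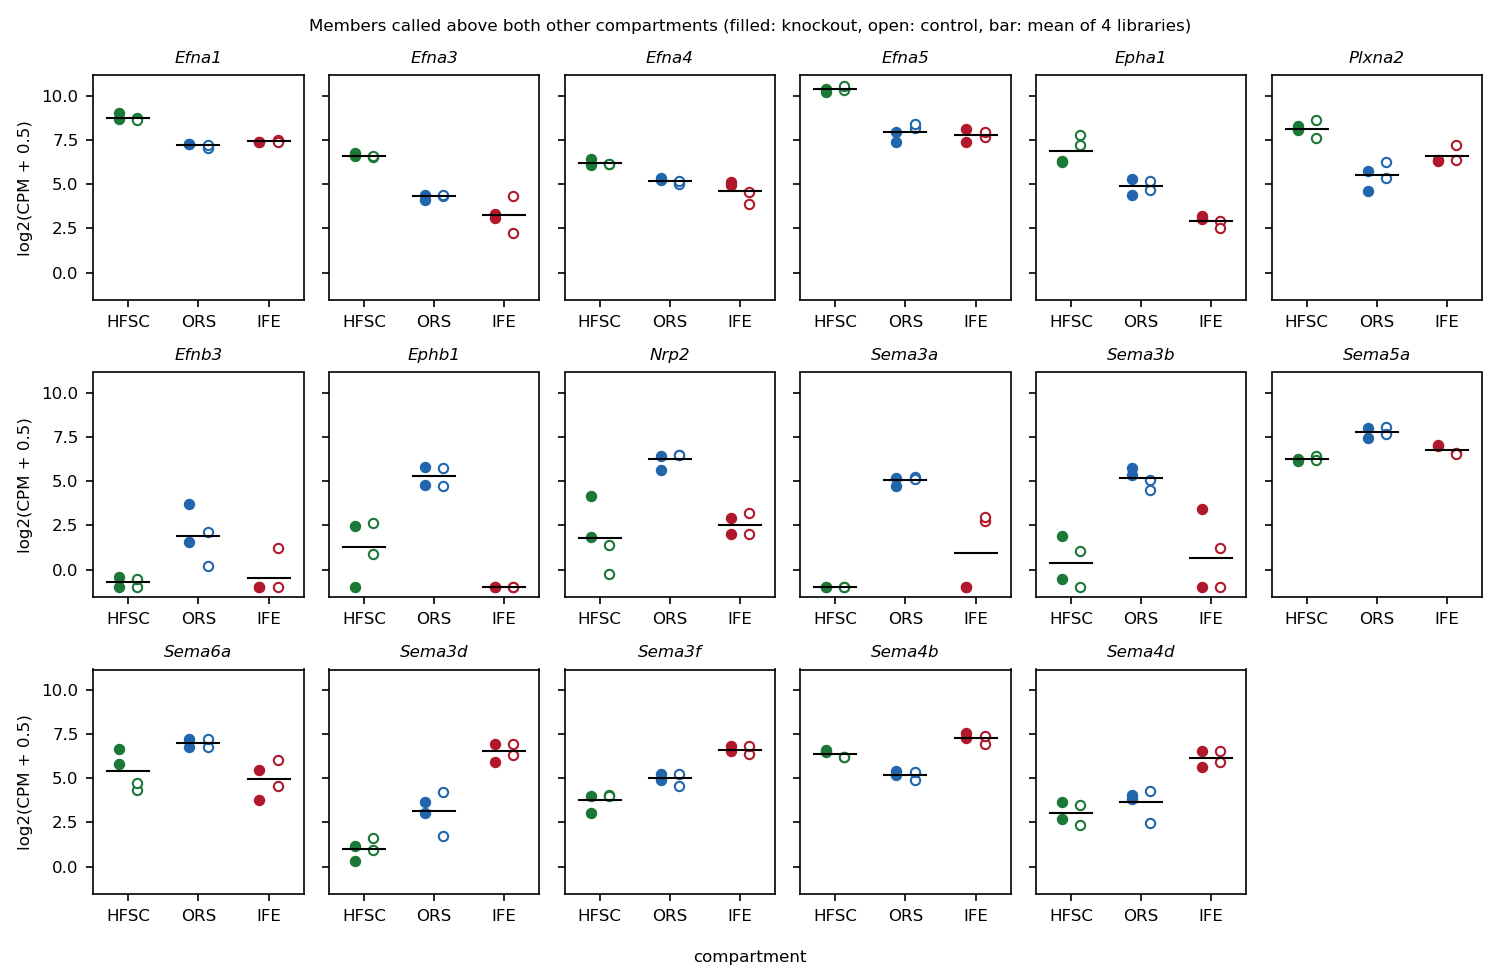
Level in each library, on the scale log2(CPM + 0.5), of the 17 members called above both other compartments, with knockout libraries filled, control libraries open and a bar at the mean of 4. The first 6 panels were highest in HFSC (Efna5 at 1185 to 1508 CPM), the next 7 in ORS (Sema3a at 25.5 to 36.9 CPM) and the last 4 in IFE (Sema3d at 59.9 to 123 CPM).

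On the receptor side of the semaphorins, Nrp2 and Plxna2 separated the compartments. Nrp2, a co-receptor for class 3 ligands, was at 3.06, 17.2, 2.13 and 0.328 in HFSC, 49.6, 86.3, 87.1 and 89.6 in ORS, and 7.11, 3.45, 3.47 and 8.56 in IFE. All ORS libraries stood above all others, at a log2 fold change of -4.48 ± 0.605 (SE, limma adjusted p = 1.83e-04) for HFSC against ORS and 3.74 ± 0.605 (SE, limma adjusted p = 0.00110) for ORS against IFE. Nrp1, the co-receptor for Sema3a, was at 3.79, 17.8, 7.09 and 11.7 in HFSC, 28.8, 18.7, 43.2 and 17.3 in ORS, and 18.4, 8.19, 22.7 and 4.10 in IFE. Its highest value was in ORS, but the ranges overlapped and no comparison called it. Plxna2, an A-type plexin that pairs with neuropilins, was at 312, 263, 192 and 390.4 in HFSC, 23.9, 53.3, 40.4 and 76.4 in ORS, and 79.7, 81.6, 83.1 and 146 in IFE. HFSC lay above IFE and IFE above ORS without overlap, with a log2 fold change of 2.64 ± 0.321 (SE, limma adjusted p = 8.42e-05) for HFSC against ORS and 1.57 ± 0.321 (SE, limma adjusted p = 0.00246) for HFSC against IFE. The difference of ORS and IFE (-1.07 ± 0.321) was not called without HFSC L95 or L97, ORS E341 or E358 or IFE E358, E359 or E360 (adjusted p of 0.0547 to 0.143, log2 fold change -1.08 to -0.79), nor when libraries were scaled only by reads in genes or by the deposited library total, without a filter on low genes or with limma-voom.

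The plexins with the highest levels per length were Plxnb2 (11.3 CPM per kb), Plxnb1 (11.1) and Plxna1 (9.93). Plxnb2, a B-type plexin, was at 112, 129, 103 and 107 in HFSC, 87.5, 60.9, 66.02 and 89.7 in ORS, and 50.3, 87.3, 67.5 and 86.9 in IFE. Plxnb1, the receptor of Sema4d, was at 131, 140.1, 156 and 172 in HFSC, 67.7, 164, 78.2 and 85.5 in ORS, and 63.5, 70.8, 57.6 and 89.8 in IFE. Plxna1 was at 127, 121, 84.7 and 115 in HFSC, 51.2, 125, 104 and 78.6 in ORS, and 76.5, 45.2, 73.7 and 75.9 in IFE. The highest value of each was in an HFSC library, and both B-type plexins were higher in HFSC than in IFE, at a log2 fold change of 1.09 ± 0.257 (SE, limma adjusted p = 0.00570) for Plxnb1 and 0.66 ± 0.227 (SE, limma adjusted p = 0.0402) for Plxnb2. The Plxnb2 call was lost without HFSC L136, L94, L95 or L97, ORS E344 or IFE E341 or E358 (adjusted p of 0.0502 to 0.127, log2 fold change 0.46 to 0.71). Plxna3, an A-type plexin on the X chromosome, was lower in HFSC than in ORS (-0.72 ± 0.217), a call lost when any 1 of the 8 HFSC and ORS libraries was left out (adjusted p of 0.0513 to 0.0929, log2 fold change -0.76 to -0.67). Plxnd1, a receptor of Sema3e, did not exceed 5.87 CPM in HFSC and 7.26 CPM in ORS, where Sema3e was high, and reached 18.7 CPM in IFE knockout library E359. It was not called in any comparison, nor were Plxna4, at most 3.36 CPM in any library, and Plxnc1, at most 6.69 CPM.

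Leaving out each of the 12 libraries in turn, 15 of the 20 calls for HFSC against ORS, 21 of the 25 for HFSC against IFE and 17 of the 22 for ORS against IFE held every time. Besides the members given above, the lower level of Sema6d in ORS than in IFE (-1.94 ± 0.504 on the log2 scale) was lost without ORS E341 or IFE E360 (adjusted p of 0.0509 to 0.0663, log2 fold change -1.88 to -1.82). The IFE level of Sema6d came from the knockout libraries (5.19 and 10.7 CPM, against 0 and 0.0892 CPM in IFE controls). The contrast of the control libraries alone did not call Sema6d. No called member turned its direction under another scaling, pseudocount, filter or limma-voom. For HFSC against IFE, the calls of Ephb1 and Ephb2 were lost with a pseudocount of 1 and without a filter, that of Plxnb2 without a filter, and those of Ephb1, Plxnb2 and Sema5a with limma-voom. For HFSC against ORS, that of Sema3d was lost with limma-voom. With the deposited library total as divisor, calls were lost for Efna4 and Sema4b in HFSC against ORS, Ephb1 and Ephb2 in HFSC against IFE, and Epha2, Plxna2 and Sema3f in ORS against IFE. Members called were then 6 higher and 21 lower for HFSC against ORS, in place of 8 and 12, and 28 higher and 5 lower for ORS against IFE, in place of 14 and 8. With that divisor, the median of all genes moved to -0.74 for HFSC against ORS and to 0.86 for ORS against IFE. The share of called genes that was higher was then 14.0% in place of 50.2% for HFSC against ORS, and 93.2% in place of 53.6% for ORS against IFE.

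No guidance gene was called between knockout and control libraries in any compartment. In HFSC labelled knockout against control, 0 of 36 members tested were called (0.0363% of 13778 genes tested, 0.0290% higher and 0.00726% lower), 4 had an unadjusted p under 0.05, and limma-voom called 0. In ORS, 0 of 42 members were called (0% of 14449 genes tested), 0 had an unadjusted p under 0.05, and limma-voom called 0. In IFE, 0 of 42 members were called (0% of 14449 genes), 3 had an unadjusted p under 0.05, and limma-voom called 0. The 42 members of ORS and IFE include Epha10 and not Plxna4, the reverse of the 42 tested over all 12 libraries. Among all genes tested, 7.58% in HFSC, 3.38% in ORS and 7.54% in IFE had an unadjusted p under 0.05. Egfr itself was not called (log2 fold change -0.30 in HFSC, -4.09 in ORS and -7.72 in IFE, limma adjusted p = 0.692, 1 and 0.0819), so a lack of a call does not show that a gene kept its level. The median log2 fold change of the members was 0.09 in HFSC, -0.04 in ORS and -0.08 in IFE, and that of all genes tested 0.00, -0.03 and -0.03.

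For the members with the highest levels per length, the intervals show the size of change that the libraries allow. The 95% interval of the log2 fold change of Efna5 was -0.50 to 0.23 in HFSC, -1.29 to 0.04 in ORS and -0.73 to 0.60 in IFE. For Efna1 it was -0.26 to 0.57 in HFSC, -0.32 to 0.67 in ORS and -0.56 to 0.43 in IFE. For Ephb6 it was -0.43 to 0.55 in HFSC, -1.93 to 1.13 in ORS and -1.54 to 1.52 in IFE. Each of these intervals was narrower in HFSC than in ORS or IFE, which were fitted together. The median SE over members was 0.282 in HFSC and 0.617 in ORS and IFE. These medians are over unlike sets, 36 members in HFSC and 42 in ORS and IFE. Members such as Epha7 and Sema3a, without a read in HFSC, were not tested there.

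**Figure D4:**
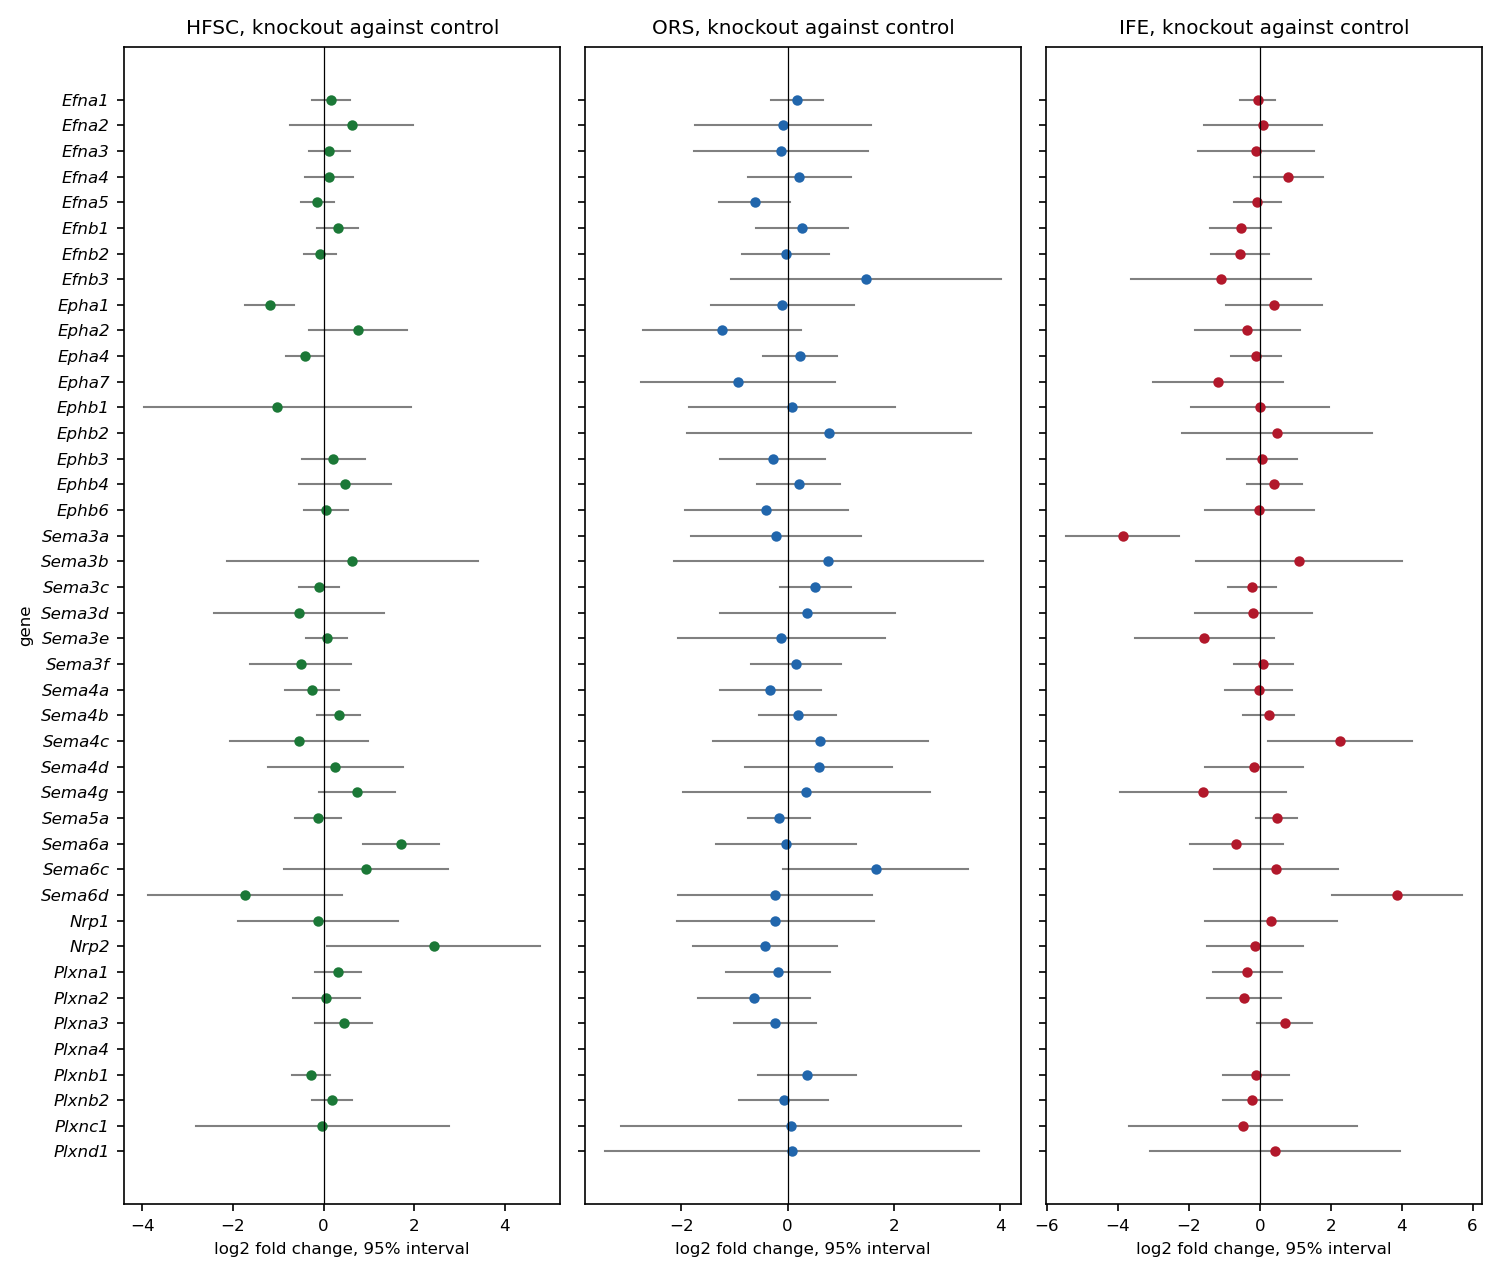
Log2 fold change of knockout against control for the members tested in HFSC, ORS and IFE, as a point with its 95% interval from limma, before adjustment for the number of genes. Epha10, tested in ORS and IFE, is not drawn. No member was called, and the widest departures were Sema3a (-3.86) and Sema6d (3.88) in IFE.

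In HFSC the lowest p-values belonged to Epha1, Sema6a, Nrp2 and Epha4. Epha1 was at 78.5 and 75.7 CPM in the HFSC libraries labelled knockout, against 214 and 146 CPM in HFSC controls. Sema6a was at 100.5 and 55.4 CPM in the HFSC libraries labelled knockout, against 19.3 and 25.98 CPM in HFSC controls. The groups did not overlap for either gene, and the log2 fold change was -1.19 ± 0.231 (SE, limma adjusted p = 0.299) for Epha1 and 1.71 ± 0.359 (SE, limma adjusted p = 0.342) for Sema6a. Nrp2 was at 3.06 and 17.2 CPM in the HFSC libraries labelled knockout, against 2.13 and 0.328 CPM in HFSC controls, a log2 fold change of 2.43 ± 1.002 (SE, limma adjusted p = 0.634) that came mostly from library L97. Epha4 was at 105 and 109 CPM in the HFSC libraries labelled knockout, against 140.2 and 147 CPM in HFSC controls, a log2 fold change of -0.42 ± 0.177 (SE, limma adjusted p = 0.654). Zyx, which shares exon bases with Epha1, was at 168 and 155 CPM in the HFSC libraries labelled knockout, against 206 and 214 CPM in HFSC controls. Bulge stem cell markers summed to 26019 to 31156 CPM in the HFSC libraries labelled knockout, against 41862 to 43002 CPM in HFSC controls, and their part in these values was not tested. Of the 29 members averaging at least 5 CPM in HFSC, 11 had both libraries labelled knockout above both controls, against 19.6% of 11155 genes, and 4 had both below, against 18.9%.

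In ORS the lowest p-values belonged to Sema6c, Efna5, Epha2 and Sema3c, none below an adjusted p of 1. Efna5 was at 163 and 248 CPM in ORS knockout libraries, against 289 and 332 CPM in ORS controls. Epha2 was at 3.55 and 5.04 CPM in ORS knockout libraries, against 13.6 and 8.34 CPM in ORS controls. Both had knockout libraries below both controls, at a log2 fold change of -0.62 ± 0.298 for Efna5 and -1.23 ± 0.670 for Epha2. Sema3c was at 72.2 and 76.5 CPM in ORS knockout libraries, against 62.5 and 42.5 CPM in ORS controls (0.52 ± 0.304). The membrane-bound Sema6c was barely present, at 1.85 and 0.903 CPM in ORS knockout libraries, against 0.0353 and 0.115 CPM in ORS controls (1.66 ± 0.785). Of the 35 members averaging at least 5 CPM in ORS, 4 had both knockout libraries above both controls, against 15.4% of 10787 genes, and 6 had both below, against 16.6%.

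In IFE the lowest p-values belonged to Sema3a, Sema6d, Sema4c and Plxna3. Sema3a was at 0 and 0 CPM in IFE knockout libraries, against 6.27 and 7.31 CPM in IFE controls, a level at least 28.3-fold lower with 3 reads per library as the floor, without a call (limma adjusted p = 0.213). In ORS, where Sema3a was higher, its values were 25.5 and 35.9 CPM in ORS knockout libraries, against 36.9 and 33.9 CPM in ORS controls, and the groups overlapped there. Sema6d, a ligand of Plxna1, was at 5.19 and 10.7 CPM in IFE knockout libraries, against 0 and 0.0892 CPM in IFE controls, a log2 fold change of 3.88 ± 0.825 (SE, limma adjusted p = 0.322). The IFE groups did not overlap for either gene, at low levels. Both genes averaged under 5 CPM in IFE, so the shares of all genes given below do not cover them. Sema4c, a membrane-bound semaphorin that binds Plxnb2, was at 14.5 and 5.22 CPM in IFE knockout libraries, against 2.54 and 0.713 CPM in IFE controls, a log2 fold change of 2.27 ± 0.913 (SE, limma adjusted p = 0.602). Plxna3 was at 49.7 and 64.6 CPM in IFE knockout libraries, against 29.2 and 40.8 CPM in IFE controls, a log2 fold change of 0.71 ± 0.349 (SE, limma adjusted p = 0.709). Plxna3 is X-linked, and the IFE knockout libraries were female and the IFE controls male by their reads. Of the 31 members averaging at least 5 CPM in IFE, 6 had both knockout libraries above both controls, against 15.6% of 10659 genes, and 3 had both below, against 17.6%.

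The knockout effects were also compared between compartments. The difference of effects was called for 0 of 42 members for HFSC minus ORS, HFSC minus IFE and ORS minus IFE alike (0% of the genes tested each time), with limma-voom also calling 0. The 42 for ORS minus IFE include Epha10 and not Plxna4, and the 42 for the other differences include Plxna4 and not Epha10. An unadjusted p under 0.05 was reached by 2 members for HFSC minus ORS, 5 for HFSC minus IFE and 2 for ORS minus IFE. The lowest adjusted p was 0.139, for Sema6d in HFSC minus IFE, where its HFSC levels were 0.489 and 0 CPM in the HFSC libraries labelled knockout, against 1.15 and 2.82 CPM in HFSC controls.

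The cytoplasmic partners of Eph receptors and ephrins were followed in a list of 26 genes, all tested over the 12 libraries. Of these, 3 were higher and 4 lower in HFSC than in ORS, 7 higher and 2 lower in HFSC than in IFE, and 3 higher and 2 lower in ORS than in IFE, shares near the 28.6%, 36.0% and 19.4% of all genes tested that were called in these comparisons. Genes that reached the filter only through the compartment where they were high had to differ, so these counts are a description. Ngef, which binds EphA receptors, was at 9.58 to 26.2 in HFSC, 0 in all 4 ORS libraries and 0 to 6.39 in IFE (CPM), and was called higher in HFSC than in both (limma adjusted p = 9.42e-05 and 4.58e-04). Ngef reached the filter through HFSC alone, so it had to differ and these calls are a description. Tiam1, an exchange factor for Rac, was also higher in HFSC than in ORS (1.06 ± 0.174 on the log2 scale) and IFE (1.06 ± 0.174). Chn2, a GTPase-activating protein for Rac, was higher in HFSC by 3.09 ± 0.625 against ORS and 3.23 ± 0.625 against IFE, at no more than 13.1 CPM. Vav3, an exchange factor recruited by Eph receptors, ran the other way at 14.98 to 25.1 in HFSC, 43.1 to 86.4 in ORS and 93.4 to 152 in IFE (CPM), with a log2 fold change of -1.58 ± 0.227 (SE, limma adjusted p = 2.73e-04) for HFSC against ORS and -2.60 ± 0.227 (SE, limma adjusted p = 5.34e-06) for HFSC against IFE. Fyn, a Src family kinase, was at 9.51 to 19.7 in HFSC, 26.9 to 31.3 in ORS and 0 to 1.44 in IFE (CPM), lowest in IFE (3.91 ± 0.430 for HFSC and 4.93 ± 0.430 for ORS against IFE). Sipa1l1, an activator of Rap hydrolysis, and Nck2, an adaptor, were higher in ORS than in IFE (1.42 ± 0.306 and 1.12 ± 0.223). The adaptor Grb10 was lower in ORS than in IFE (-2.71 ± 0.723), and Sipa1l1 was lower in HFSC than in ORS (-1.50 ± 0.306). Between knockout and control libraries limma and limma-voom called 0 of these genes, and an unadjusted limma p under 0.05 was reached by 4 of 26 tested in HFSC, 0 of 24 in ORS and 0 of 24 in IFE, where 7.58%, 3.38% and 7.54% of all genes tested reached it.

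The co-receptors and cytoplasmic partners of plexins and neuropilins numbered 35, of which 34 were tested. Of these, 8 were higher and 5 lower in HFSC than in ORS, 12 higher and 6 lower in HFSC than in IFE, and 7 higher and 4 lower in ORS than in IFE, where 28.6%, 36.0% and 19.4% of all genes tested were called. Genes that reached the filter only through the compartment where they were high, such as Rnd1, had to differ, so these counts are a description. L1cam, an adhesion molecule that joins Nrp1 in the Sema3a receptor, was at 58.3 to 92.2 in HFSC, 0.192 to 5.91 in ORS and 10.4 to 21.01 in IFE (CPM), a log2 fold change of 5.24 ± 0.481 (SE, limma adjusted p = 1.20e-05) for HFSC against ORS. Dpysl2, a microtubule-binding mediator of Sema3a signals, was at 4.72 to 21.2 in HFSC, 109 to 186 in ORS and 60.02 to 118 in IFE (CPM) and lowest in HFSC, with a log2 fold change of -3.66 ± 0.380 (SE, limma adjusted p = 2.90e-05) against ORS. The levels of L1cam and Dpysl2 ran in opposite order between HFSC and ORS. Rnd1, a small GTPase that binds plexins, was at 3.68 to 7.64 in HFSC, 0 in all 4 ORS libraries and 0 in all 4 IFE libraries (CPM). Arhgef12, bound by B-type plexins, was higher in HFSC than in ORS (1.07 ± 0.124 on the log2 scale) and IFE (1.13 ± 0.124). Itga1, an integrin subunit, was at 2.04 to 6.12 in HFSC, 32.4 to 78.1 in ORS and 0 to 2.23 in IFE (CPM), highest in ORS. The actin regulators Mical3 and Mical1 were higher in ORS than in IFE (1.93 ± 0.253 and 3.20 ± 0.608), and so was the exchange factor Farp1 (1.39 ± 0.222), which was lower in HFSC than in ORS (-1.55 ± 0.222). Cofilin (Cfl1), an actin-severing protein, was lower in HFSC than in IFE (-1.34 ± 0.125). Between knockout and control libraries limma and limma-voom called 0 of these genes, and an unadjusted limma p under 0.05 was reached by 2 of 33 tested in HFSC, 1 of 32 in ORS and 2 of 32 in IFE, where 7.58%, 3.38% and 7.54% of all genes tested reached it.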

How the data were processed

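The deposited values are log2 reads per 1000000 of a library total, 1 value per gene and library, with 0.9 read in place of 0, as the deposited values show. Trim Galore, DESeq2 and mm10 are named, without roles, in the submitters' processing notes. The aligner, counter, annotation and use of strand were not given in the sources used here. Whole reads were recovered from the deposited log2 values (within 0.2 read).

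TMM factors (trims 30% on ratios, 5% on levels) were computed in R 4.3.3 over 12 libraries. The test was limma 3.58.1 (statmod 1.5.0; trended, robust prior, two-sided) on log2(CPM + 0.5), which understates changes of low genes. Genes needed 10 reads, at the median library size, in 2 libraries and 15 in total. IFE and ORS libraries were fitted together for their knockout effects (4 residual degrees of freedom), HFSC alone (2), and all 12 for the rest (6). Scripts were tested on simulated data. The counts of each replicate pair differed by more than sampling noise, with a chi-square of 41.4 to 140.2 per degree of freedom.

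All 53 members overlap GENCODE genes of that symbol, and 14 share exon bases with another gene. Values per library were given for the 8 largest called fold changes per compartment comparison, the 3 highest members per kb of each class and the 4 lowest p-values per knockout comparison, and partner genes for the 5 lowest p-values per list and comparison. Other members were named after their values were seen, to describe their class. The members and lists were chosen with earlier results of these data known. Alternatives were other scalings, pseudocounts, filters, limma-voom, other sample sets, a replicate block and leaving out each library.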

Additional observations from a re-analysis of the deposited data

Results flagged for a closer look

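For 5 guidance genes both knockout libraries lay above both controls in one compartment and below both in another, among 32 members averaging at least 5 CPM in 2 or more compartments (15.6%). Of 10894 genes at such levels, 14.0% did the same, so the members' share was near that of all genes. The difference of effects was tested with limma each time and did not pass the threshold. Epha1 was below its controls in HFSC and above them in IFE, a difference of effects (HFSC minus IFE) of -1.58 (SE 0.606, adjusted p = 0.613). Efnb1 was above its controls in HFSC and below them in IFE, at 0.85 (SE 0.461, adjusted p = 0.776). For Epha2 (1.99, SE 0.846) and Nrp2 (2.86, SE 1.21) the sides differed between HFSC, above, and ORS, below, with an adjusted p of 1 each. Plxna3 was above its controls in HFSC and IFE and below them in ORS, at 0.68 for HFSC minus ORS (SE 0.435, adjusted p = 1) and -0.95 for ORS minus IFE (SE 0.494, adjusted p = 0.999). Efnb1 and Plxna3 are X-linked, and the sexes differed between genotypes in HFSC and IFE, whose part in these values was not tested.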

How the results depend on the processing

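The counts of members called in the knockout comparisons and differences of effects were 0 under every alternative run. Leaving out each library gave 16 to 23 members for HFSC against ORS, 21 to 25 for HFSC against IFE and 19 to 23 for ORS against IFE. The contrast of the control libraries alone called 15 members for HFSC against ORS, 17 for HFSC against IFE and 13 for ORS against IFE. Of the members called above both other compartments in HFSC, it did not call Efna4 against ORS or Plxna2 against IFE. Of those above both others in ORS, it did not call Efnb3, Sema3a, Sema3b or Sema6a against IFE, nor Efnb3 against HFSC. Those above both others in IFE were all called against both. Library numbers E341, E358 and E359 occur in both ORS and IFE, and no label says what the numbers share. The deviations of same-numbered libraries from their group means correlated at 0.05 to 0.06. With 2 libraries per group these deviations mirror each other, so E358 and E359 gave the same value. The correlation therefore cannot decide whether same-numbered libraries share an animal. With the replicate block, ORS against IFE called 1 member (167 of all genes). A narrower count took only the largest called fold changes of each compartment comparison and the lowest p-values of each knockout comparison. Of 738 alternative values of these fold changes, 715 stayed on the same side of the threshold, 23 lost the call and 0 reversed. The knockout values among them had no call to lose. Lost compartment calls of Plxna3, Plxnb2 and Sema5a lie outside this set, so the 23 does not count all lost calls. Over all genes, HFSC labelled knockout against control called 5 genes, against 1 without a filter or with all 12 libraries fitted as 6 groups, 0 with limma-voom and 0 to 1 without each library. IFE knockout called 0, against 3 with a filter of 50 reads, 24 with all 12 libraries as 6 groups, 5 with its 4 libraries alone, and 0 to 56 without each library, 56 being without IFE E359. With the deposited library total as divisor, 7869 genes were called in place of 4366 for HFSC against ORS, and 8372 in place of 2962 for ORS against IFE; members called were 27 and 33. With 2 libraries per group, calls of low members such as Efnb3, Ephb2 and Sema6d were lost when single libraries were left out. So were calls of members at higher levels, such as Plxna2, Plxna3, Plxnb2 and Sema5a.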

Other observations

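The netrins, slits, repulsive guidance molecules and their receptors, 29 genes listed and 19 tested over 12 libraries, were followed across the compartments. Of these, 5 were higher and 5 lower in HFSC than in ORS, 6 higher and 5 lower in HFSC than in IFE, and 5 higher and 2 lower in ORS than in IFE, where 28.6%, 36.0% and 19.4% of all genes tested were called. Genes that reached the filter only through the compartment where they were high had to differ, so these counts are a description. Slit3, a secreted ligand of Robo receptors, was at 18.4 to 31.7 in HFSC, 0.414 to 8.40 in ORS and 0 in all 4 IFE libraries (CPM). Its receptors Robo1 and Robo2 were lower in HFSC than in ORS. Robo1 was at 2.30 to 9.24 in HFSC, 27.5 to 58.7 in ORS and 65.6 to 143 in IFE, and Robo2 at 11.5 to 27.3 in HFSC, 147 to 262 in ORS and 7.39 to 34.99 in IFE (CPM). The log2 fold change for HFSC against ORS was -3.16 ± 0.449 (SE, limma adjusted p = 2.58e-04) for Robo1 and -3.52 ± 0.405 (SE, limma adjusted p = 5.72e-05) for Robo2. Flrt1, an adhesion protein that binds Unc5 receptors, was at 13.6 to 32.8 in HFSC, 189 to 322 in ORS and 148 to 276 in IFE (CPM) and lowest in HFSC, with a log2 fold change of -3.52 ± 0.279 (SE, limma adjusted p = 4.50e-06) against ORS. Flrt2 was higher in HFSC than in ORS (1.63 ± 0.268 on the log2 scale). Flrt3 was higher in ORS than in IFE (0.86 ± 0.178). Rgmb, a co-receptor of bone morphogenetic proteins that also binds neogenin, was at 14.7 to 26.8 in HFSC, 26.4 to 43.4 in ORS and 141 to 171 in IFE (CPM), highest in IFE. The netrin receptor Unc5b was higher in HFSC than in IFE, at a log2 fold change of 2.60 ± 0.389 (SE, limma adjusted p = 2.63e-04). Unc5c had 0 reads in all 4 ORS libraries and 0.0798 to 82.8 CPM in IFE. Between knockout and control libraries limma and limma-voom called 0 of these genes, and an unadjusted limma p under 0.05 was reached by 5 of 18 tested in HFSC, 2 of 17 in ORS and 2 of 17 in IFE, where 7.58%, 3.38% and 7.54% of all genes tested reached it.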
